A study of Mus musculus with 6 samples.

Results

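Deubiquitinases are the proteases that remove ubiquitin, a small protein attached to other proteins as a single unit or as a chain, and they can thereby reverse what a ubiquitin ligase has done. The ubiquitin-specific proteases (USP genes) are their largest family in mammals, and the ovarian tumour (OTU) proteases are a smaller family whose members often prefer chains of one linkage. In macrophages and microglia, chains assembled on signalling proteins below Toll-like receptor 4 carry the signal towards NF-κB and the interferon regulatory factors, and several USP and OTU enzymes are known to trim such chains. The members described here were chosen by symbol: every gene in the count tables named Usp with a digit after it, or beginning with Otud or Otub, leaving out Usp18, which acts on the ubiquitin-like protein ISG15. That gave 65 of 24411 genes, 55 with USP names and 10 with OTU names. One of them, Usp6nl, carries the name only: it encodes a GTPase-activating protein for Rab GTPases.

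The libraries came from primary microglia, the macrophages of the brain, shaken off mixed glial cultures of whole brains from ICR mice aged 3 days. Per the labels' protocols the tissue of 12 mice was pooled and more than 92% of the cells carried CD11b. Cells of a first set of 3 libraries were treated with FTY720 (fingolimod, a sphingosine analogue) at 1 µM and with lipopolysaccharide (LPS, a bacterial ligand of Toll-like receptor 4) at 10 ng/ml for 4 h, and those of a second set of 3 with FTY720 at 1 µM for 4 h. All 6 libraries therefore carry FTY720, and every difference below is one of LPS in its presence. Libraries with LPS alone or with no agent are not analysed here. The labels call the triplicates independent RNA samples and do not say whether they came from separate cultures, so the p-values measure the spread between these RNA samples.

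Sense gene reads numbered 2431775 to 2800738 per library with LPS and 2729532 to 3454647 with FTY720 alone, of which rRNA-like genes took 38.2% to 44.9% with LPS and 28.8% to 59.0% with FTY720 alone. Tnf and Il1b, textbook targets of LPS, had log2 fold changes of 6.43 ± 0.17 and 6.95 ± 0.15 (SE). FTY720 replicate 3 stood apart: it differed from the other FTY720 libraries by a chi-square of 3.497 and 4.39 per degree of freedom, where all other pairs within a group gave 1.28 to 1.97. Its rRNA-like share was 28.8%, against 47.9% and 59.0% in FTY720 replicates 1 and 2. Its TMM normalization factor, which scales the library size, was 1.43, against 1.10 and 0.867. Of 10 microglial markers, 9 were tested and 8 were higher with LPS, with summed levels of 3237 to 3779 CPM (read counts scaled by library size and TMM normalization factors) against 2057 to 2272 CPM; Tmem119, a defining marker, had only 11 reads with LPS and 8 without. Markers of the oligodendrocyte lineage, 7 in all, summed to 137 to 157 CPM with LPS against 265 to 288 CPM, with 5 of 5 tested lower, and 6 neuron markers summed to 97.6 to 110 CPM against 180 to 241 CPM, with 3 of 3 tested lower. Rbfox3, a defining neuronal marker, had 5 reads with LPS and 3 without. Astrocyte markers (6, of which 2 were higher and 1 lower) summed to 100.3 to 140 CPM against 86.1 to 105 CPM, and fibroblast and mural markers (6, with 4 tested and not called) to 54.2 to 81.7 CPM against 49.2 to 67.4 CPM. In these bulk samples, fewer cells of a type and less RNA per cell cannot be told apart, and the part of these other cells in the deubiquitinase results was not tested.

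With LPS added, the deubiquitinase genes moved in both directions and mostly by less than 2-fold, as genes at large did: 16% of the tested members and 18.1% of all genes tested were called with a change of at least 2-fold. Otud1, Usp16, Usp25 and Usp38 rose by 2.02-fold to 3.45-fold, and Usp30, Usp40, Usp35 and Usp28 fell by 2.22-fold to 3.34-fold. Of the 65 members, 50 passed the filter on low counts, and edgeR's quasi-likelihood test, adjusted over all 10124 genes tested, called 8 higher and 13 lower at adjusted p under 0.05. That is 16% and 26% of the tested members, beside 23.3% higher and 22.7% lower among all genes tested. In either direction 42% of the tested members were called, beside 46.0% of all genes. The groups' CPM values did not overlap for 24 members (48%), beside 54.0% of all genes. The median log2 fold change was -0.00 over the members and -0.04 over all genes, and the median absolute change 0.34 and 0.47. The shares lie near or below those of all genes, so the family is described gene by gene.

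The 8 higher calls were also made by DESeq2, whereas DESeq2 called only 5 members lower, all of them among the 13: Usp21, Usp28, Usp30, Usp31 and Usp40. Leaving out FTY720 plus LPS replicate 1, 2 or 3 gave 8, 7 and 6 lower members, and leaving out FTY720 replicate 3, the library that stood apart, gave 11 higher and 14 lower. With total library size as the scale, only 3 members were higher (Otud1, Usp16 and Usp25) and 12 lower. That scaling moved the median of all genes by -0.32 on the log2 scale. Counts over all genes moved as well. Lower genes numbered 2297 in the reported analysis and 1274 with DESeq2. Without FTY720 plus LPS replicate 1, 2 or 3 they numbered 1700, 1727 and 1838. Without FTY720 replicate 3, 2722 genes were higher and 2495 lower. With total library size 766 were higher and 2688 lower, against 2362 higher in the reported analysis.

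**Figure D1:**
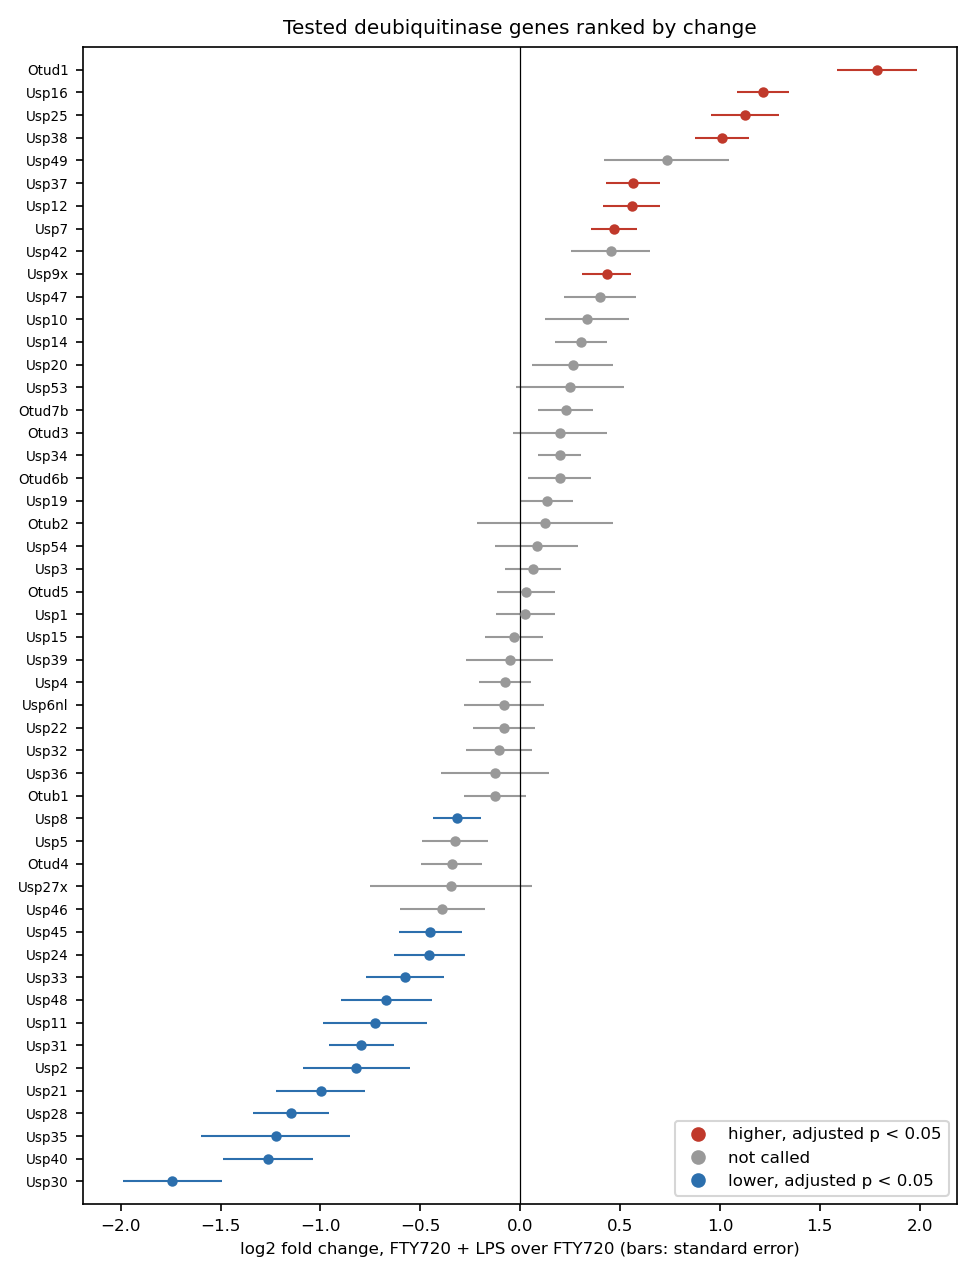
Log2 fold change (FTY720 plus LPS over FTY720) of the 50 tested members, ranked from highest to lowest, with bars of 1 standard error (3 libraries per group). Red points (8) were called higher and blue points (13) lower; Otud1 lies highest at 1.79 and Usp30 lowest at -1.74.

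Otud1 had the highest fold change of the members. It encodes an OTU enzyme that cleaves ubiquitin chains of the K63-linked type and lies at chr2:19657752-19660583, plus strand (GRCm38). Its level was 45.1, 42.3 and 31.5 CPM in the libraries given FTY720 and LPS, against 9.34, 14.4 and 11.1 CPM in the libraries given FTY720 alone. All LPS-treated libraries stood above all others, and the difference was 3.45-fold (log2 fold change 1.79 ± 0.20, SE, adjusted p = 1.62e-07), from 284 reads against 118.

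Usp16, a deubiquitinase of histone H2A (chr16:87454703-87483517, plus strand), had 120.5, 124 and 131 CPM in the LPS-treated libraries, against 53.1, 46.1 and 61.4 CPM in the FTY720-only libraries. The lowest value with LPS was about 2 times the highest without it, and the gene rose 2.33-fold (log2 fold change 1.22 ± 0.13, SE, adjusted p = 7.13e-08). Its locus overlaps Cct8 on the opposite strand, from which the strand-specific counting separates it, and 4.01% of the reads at Usp16 lay on the opposite strand. Usp25, which trims chains on TRAF proteins below Toll-like receptors (chr16:77013706-77116780, plus strand), had 57.1, 73.2 and 69.1 CPM in the FTY720 plus LPS libraries, against 31.04, 38.4 and 22.8 CPM in the FTY720 libraries. It rose 2.18-fold (log2 fold change 1.13 ± 0.17, SE, adjusted p = 1.17e-05), again with no overlap between the groups. For Usp38, an enzyme linked to turnover of the kinase TBK1 (chr8:80980733-81014928, minus strand), the values were 99.2, 81.2 and 86.6 CPM in the libraries given FTY720 and LPS, against 41.7, 42.1 and 48.3 CPM in the libraries given FTY720 alone. Usp38 rose 2.02-fold (log2 fold change 1.01 ± 0.14, SE, adjusted p = 2.04e-06), a call that ended with total library size as the scale (0.68, adjusted p = 0.0511).

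Smaller rises were found for Usp37, Usp12, Usp7 and Usp9x. Usp37, which stabilises cyclin A, had 76.8, 69.4 and 63.6 CPM in the LPS-treated libraries, against 46.4, 50.7 and 45.2 CPM in the FTY720-only libraries (log2 fold change 0.57 ± 0.14, SE, adjusted p = 0.00162). Usp12, which works in a complex with the WD-repeat protein Wdr48, was at 53.3, 53.3 and 60.1 CPM in the FTY720 plus LPS libraries, against 38.7, 40.1 and 34.6 CPM in the FTY720 libraries (log2 fold change 0.56 ± 0.14, SE, adjusted p = 0.00281). The groups did not overlap for either gene. Usp7, the enzyme that protects the p53 ligase Mdm2, had 148, 136 and 139 CPM in the libraries given FTY720 and LPS, against 107, 100.5 and 97.9 CPM in the libraries given FTY720 alone (log2 fold change 0.47 ± 0.11, SE, adjusted p = 0.00186). Usp9x, a very large X-linked enzyme, had 173, 167 and 187 CPM in the LPS-treated libraries, against 118, 153 and 119 CPM in the FTY720-only libraries (log2 fold change 0.43 ± 0.12, SE, adjusted p = 0.00583). These 4 genes lost their calls with total library size as the scale (log2 fold changes of 0.13 to 0.26, adjusted p = 0.512 to 0.756). Usp7 and Usp9x also lost them once the trend of fold change on mean expression was removed (0.11 and 0.00, adjusted p = 0.421 and 0.987).

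**Figure D2:**
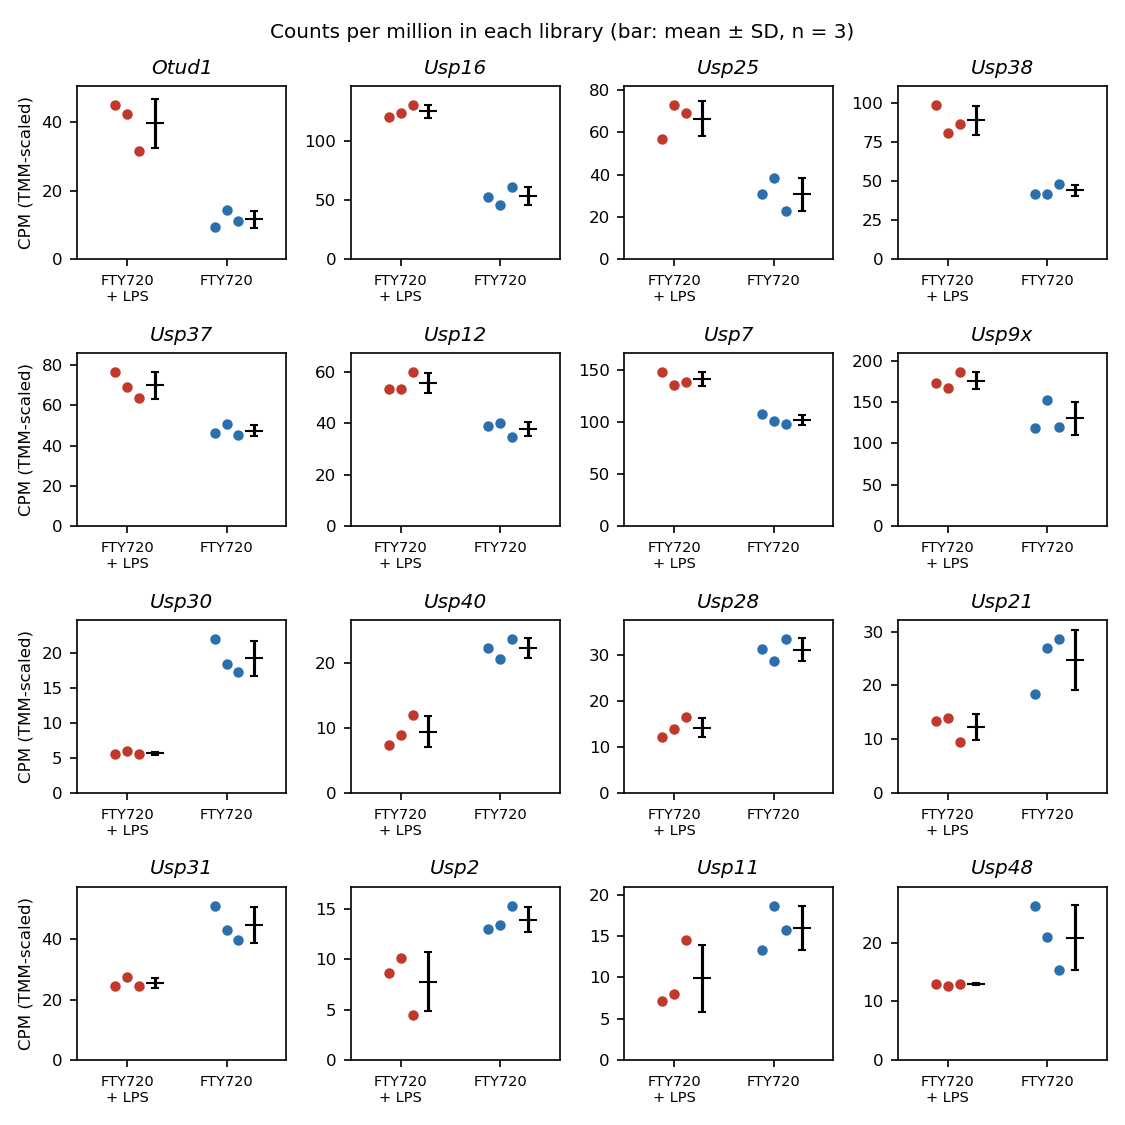
CPM (scaled with TMM factors) in each of the 3 FTY720 plus LPS libraries (red, left) and the 3 FTY720 libraries (blue, right) for 16 members, with mean and SD beside the points; each y axis starts at 0. The groups do not overlap except in Usp11, where 1 red point at 14.5 CPM lies above the lowest blue point at 13.3 CPM.

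Among the lower members, Usp30 changed most. It encodes a deubiquitinase of the mitochondrial outer membrane that opposes removal of mitochondria by the ubiquitin ligase parkin, and lies at chr5:114065461-114124720, plus strand. Its level was 5.59, 5.92 and 5.51 CPM in the FTY720 plus LPS libraries, against 22.03, 18.4 and 17.2 CPM in the FTY720 libraries. With 40 reads against 194, it was 3.34-fold lower (log2 fold change -1.74 ± 0.25, SE, adjusted p = 4.95e-06). The LPS-treated libraries lay within 0.5 CPM of each other.

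Usp40, a less studied enzyme (chr1:87945119-88008551, minus strand), had 7.46, 8.88 and 12.01 CPM in the libraries given FTY720 and LPS, against 22.4, 20.7 and 23.8 CPM in the libraries given FTY720 alone and was 2.401-fold lower (log2 fold change -1.26 ± 0.22, SE, adjusted p = 7.89e-05). Usp28, which stabilises the transcription factor Myc (chr9:48985375-49042517, plus strand), had 12.3, 13.96 and 16.5 CPM in the LPS-treated libraries, against 31.4, 28.7 and 33.7 CPM in the FTY720-only libraries and was 2.22-fold lower (log2 fold change -1.15 ± 0.19, SE, adjusted p = 3.56e-05). For Usp21, which acts on histone H2A and on receptor-interacting proteins, the values were 13.4, 13.96 and 9.51 CPM in the FTY720 plus LPS libraries, against 18.4, 27.04 and 28.7 CPM in the FTY720 libraries (log2 fold change -0.999 ± 0.22, SE, adjusted p = 8.98e-04). Usp31, reported in human cells to restrain NF-κB, had 24.6, 27.5 and 24.5 CPM in the libraries given FTY720 and LPS, against 51.1, 43.1 and 39.6 CPM in the libraries given FTY720 alone (log2 fold change -0.79 ± 0.16, SE, adjusted p = 3.83e-04). In each of these 4 genes every LPS-treated library lay below every FTY720-only library. With Usp30 they are the 5 lower members that kept their call and direction in all 15 alternative analyses.

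The other 8 lower calls did not pass in DESeq2, with adjusted p of 0.0791 to 0.15. Usp35, a relative of Usp38 linked to mitochondrial removal, had 3.36, 5.08 and 1.001 CPM in the LPS-treated libraries, against 8.01, 8.01 and 7.06 CPM in the FTY720-only libraries (log2 fold change -1.22 ± 0.37, SE, adjusted p = 0.0103), from 23 reads against 78. Reads on the opposite strand at the Usp35 locus numbered 45 with LPS against 26, and with both strands counted the value was -0.11, adjusted p = 0.76. Usp2, which protects cyclin D1, had 8.58, 10.2 and 4.51 CPM in the FTY720 plus LPS libraries, against 13.02, 13.4 and 15.3 CPM in the FTY720 libraries (log2 fold change -0.82 ± 0.27, SE, adjusted p = 0.0155). Usp48, a nuclear enzyme that acts on the NF-κB subunit RelA, had 13.1, 12.7 and 13.02 CPM in the libraries given FTY720 and LPS, against 26.4, 21.03 and 15.3 CPM in the libraries given FTY720 alone (log2 fold change -0.67 ± 0.23, SE, adjusted p = 0.0197). None of these 3 showed overlap, and in Usp35 and Usp2 replicate 3 with LPS lay lowest; without that library Usp35 stood at -0.84, adjusted p = 0.0731, and Usp2 at -0.55, adjusted p = 0.102. Usp11, an enzyme of DNA repair, had 7.09, 8.04 and 14.5 CPM in the LPS-treated libraries, against 13.3, 18.7 and 15.8 CPM in the FTY720-only libraries (log2 fold change -0.73 ± 0.26, SE, adjusted p = 0.0272). Here 1 LPS-treated library lay inside the range of the other group, and the call ended without FTY720 plus LPS replicate 1 (-0.49, adjusted p = 0.196), without FTY720 plus LPS replicate 2 (-0.59, adjusted p = 0.132) and without FTY720 replicate 2 (-0.58, adjusted p = 0.0967). Usp33, which acts on membrane receptors, had 17.2, 15.2 and 17.02 CPM in the FTY720 plus LPS libraries, against 22.03, 29.4 and 22.6 CPM in the FTY720 libraries (log2 fold change -0.58 ± 0.20, SE, adjusted p = 0.0198). Usp24, a large enzyme related to Usp9x, had 33.6, 42.3 and 37.5 CPM in the libraries given FTY720 and LPS, against 56.7, 62.8 and 37.4 CPM in the libraries given FTY720 alone (log2 fold change -0.46 ± 0.18, SE, adjusted p = 0.0394). Its groups overlapped, while those of Usp33 did not. Usp45, which acts on the repair nuclease subunit Ercc1, had 37.7, 37.7 and 34.04 CPM in the LPS-treated libraries, against 42.05, 46.7 and 59.8 CPM in the FTY720-only libraries (log2 fold change -0.45 ± 0.16, SE, adjusted p = 0.0242). Usp8, the endosomal enzyme that works with the ESCRT machinery, had 75.7, 69.8 and 81.1 CPM in the FTY720 plus LPS libraries, against 96.4, 93.1 and 92.3 CPM in the FTY720 libraries (log2 fold change -0.32 ± 0.12, SE, adjusted p = 0.0388). Both separated the groups. The calls of Usp24, Usp33, Usp45, Usp48 and Usp8 ended whichever FTY720 plus LPS library was left out (replicate 1, 2 or 3), at log2 fold changes of -0.65 to -0.25 and adjusted p of 0.0503 to 0.21. They also ended without FTY720 replicate 1 for Usp24, Usp48 and Usp8, without FTY720 replicate 2 for Usp24, Usp33 and Usp8, and without FTY720 replicate 3 for Usp45, at -0.47 to -0.28 and adjusted p of 0.0867 to 0.221. With the trend on mean expression removed, Usp35, Usp2, Usp48, Usp11 and Usp33 were not called (adjusted p = 0.0505 to 0.124). With the replicate number as a block, Usp8 was the 1 called member that lost its call (-0.32, adjusted p = 0.0541).

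The start-site windows of the 3 members that rose in every alternative and of 2 of the members that fell in every alternative are shown for comparison of the sequences ahead of genes that moved in opposite directions. They are RefSeq windows on GRCm38.p6, running from 250 bases before to 50 bases after the annotated start, 5′ to 3′ on the gene's own strand. Otud1 is at chr2:19657481-19657780, plus strand, Usp16 at chr16:87454735-87455034, plus strand, Usp25 at chr16:77013819-77014118, plus strand, Usp28 at chr9:48985135-48985434, plus strand and Usp30 at chr5:114100083-114100382, plus strand. The windows of Usp16, Usp25 and Usp30 begin inside the GENCODE gene spans given above, for Usp30 far past the first base. For these genes the RefSeq start differs from the start of that span. Capitals mark GGGCGG or its reverse complement (a GC box), CACGTG (an E box) and TGANTCA (an AP-1 motif).
Otud1: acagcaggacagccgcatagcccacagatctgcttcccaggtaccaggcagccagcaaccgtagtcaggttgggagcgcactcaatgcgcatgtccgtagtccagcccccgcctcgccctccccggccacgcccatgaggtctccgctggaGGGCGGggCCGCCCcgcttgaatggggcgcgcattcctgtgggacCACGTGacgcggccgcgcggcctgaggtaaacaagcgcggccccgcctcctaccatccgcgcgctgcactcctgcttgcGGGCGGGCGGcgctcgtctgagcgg
Usp16: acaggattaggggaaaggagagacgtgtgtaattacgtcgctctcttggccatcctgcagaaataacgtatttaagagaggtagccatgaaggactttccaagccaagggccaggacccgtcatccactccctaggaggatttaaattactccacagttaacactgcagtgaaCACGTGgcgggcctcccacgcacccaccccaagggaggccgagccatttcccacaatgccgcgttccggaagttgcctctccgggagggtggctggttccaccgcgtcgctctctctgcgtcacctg
Usp25: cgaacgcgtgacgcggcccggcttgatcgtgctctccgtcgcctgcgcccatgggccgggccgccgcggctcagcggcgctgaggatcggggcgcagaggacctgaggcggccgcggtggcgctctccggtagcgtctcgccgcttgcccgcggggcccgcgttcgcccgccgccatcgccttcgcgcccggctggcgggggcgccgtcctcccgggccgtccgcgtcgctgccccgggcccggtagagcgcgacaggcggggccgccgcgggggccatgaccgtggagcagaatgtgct
Usp28: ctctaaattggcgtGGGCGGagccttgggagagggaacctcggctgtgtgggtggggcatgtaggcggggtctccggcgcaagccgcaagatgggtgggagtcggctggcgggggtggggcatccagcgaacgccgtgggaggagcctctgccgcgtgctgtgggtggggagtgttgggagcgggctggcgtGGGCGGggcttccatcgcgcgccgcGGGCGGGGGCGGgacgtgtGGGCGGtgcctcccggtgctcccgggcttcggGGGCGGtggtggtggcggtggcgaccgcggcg
Usp30: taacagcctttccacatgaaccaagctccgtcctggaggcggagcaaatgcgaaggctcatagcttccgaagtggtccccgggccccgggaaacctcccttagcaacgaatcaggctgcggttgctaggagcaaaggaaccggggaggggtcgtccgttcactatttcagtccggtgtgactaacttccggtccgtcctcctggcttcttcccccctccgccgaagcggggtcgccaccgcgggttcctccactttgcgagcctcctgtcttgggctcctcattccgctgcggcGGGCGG

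RefSeq windows were found for 51 of the 65 members, among them 7 of the 8 higher and 12 of the 13 lower ones. On either strand, a GC box was present in 5 of those 7 higher members and in 9 of the 12 lower members. It was about as frequent in uncalled tested members, at 15 of 20 (75%), beside 71.4% of the higher and 75% of the lower ones. The share was 62.7% of all members with a window, beside 38.2% of the 27025 genes with a window. Usp28 had 6 such matches, the Otud1 window 4 and the Usp30 window 1, whereas Usp16 and Usp25 had none (0). An E box was present in Otud1 and Usp16 among the higher members, in Usp31 among the lower ones and in 4 of the 20 uncalled ones. Among all genes 8.09% had it. The AP-1 motif was present in 1 higher member (Usp38), 1 lower member (Usp31) and 2 of the 20 uncalled members, beside 8.97% of all genes. The 10-base NF-κB consensus (9.55% of all genes), the interferon response motif of a GAAA pair spaced by 2 bases (3.99%, both strands) and the cyclic AMP motif TGACGTCA (2.03%) matched none (0) of the called members. GC content was high in both groups, with medians of 70.3% in the windows of higher members and 64.5% in those of lower members. The median was 63.3% over the windows of all members and 52.7% over all windows. Some GC boxes overlap each other, as in Otud1, and a match in these letters is a description of the window.

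Related enzymes did not always move together. Ratios between the genes of 11 pairs of paralogs, fixed with earlier results of these data known, were compared over the libraries, and in 4 pairs the groups' ratios did not overlap. Each of those pairs holds a gene already called above. Single genes did not overlap between the groups in 54.0% of all genes tested. Ratios of unrelated genes were not computed, so the pairs are given as descriptions. Usp25 and Usp28 share most of their domain layout, yet Usp25 rose and Usp28 fell. Their log2 ratio, Usp25 over Usp28, was 2.21, 2.39 and 2.06 in the FTY720 plus LPS libraries, against -0.02, 0.42 and -0.56 in the FTY720 libraries. Every ratio with LPS lay above every ratio without it, and the means differed by 2.27 on the log2 scale (exact two-sided permutation p = 0.1, adjusted 0.275 over the 11 pairs; no split of 3 and 3 libraries can give a p below 0.1).

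Usp35 and Usp38 also moved in opposite directions. Their log2 ratio, Usp35 over Usp38, was -4.89, -4.0 and -6.43 in the FTY720 plus LPS libraries, against -2.38, -2.39 and -2.77 in the FTY720 libraries, a difference of -2.59. Usp12 and Usp46, close paralogs that share the partner Wdr48, had a log2 ratio of 2.07, 2.22 and 2.10 in the FTY720 plus LPS libraries, against 1.21, 1.15 and 1.18 in the FTY720 libraries. The difference was 0.95: Usp12 rose, while Usp46 had 12.7, 11.4 and 14.02 CPM in the libraries given FTY720 and LPS, against 16.7, 18.03 and 15.3 CPM in the libraries given FTY720 alone (log2 fold change -0.39 ± 0.21, SE, adjusted p = 0.142) and was not called. The 4th such pair was Usp20 and Usp33, enzymes that act on the same adrenergic receptor; their log2 ratio was 0.15, 0.04 and 0.30 in the FTY720 plus LPS libraries, against -0.52, -0.97 and -0.52 in the FTY720 libraries. Usp20 itself had 19.02, 15.7 and 21.03 CPM in the LPS-treated libraries, against 15.4, 15.02 and 15.8 CPM in the FTY720-only libraries and was not called (log2 fold change 0.26 ± 0.20, SE, adjusted p = 0.298). Each of these 3 pairs gave an exact permutation p of 0.1, adjusted 0.275.

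In the other 7 pairs the ratios overlapped between the groups. Usp4 and Usp15, enzymes with the same amino-terminal domains, differed by only -0.08 in mean log2 ratio (exact permutation p = 0.7). Usp4 had 64.5, 66.4 and 58.1 CPM in the FTY720 plus LPS libraries, against 69.4, 63.4 and 66.6 CPM in the FTY720 libraries (log2 fold change -0.07 ± 0.13, SE, adjusted p = 0.663). Usp15 had 74.6, 69.8 and 72.6 CPM in the libraries given FTY720 and LPS, against 70.4, 60.1 and 89.7 CPM in the libraries given FTY720 alone (log2 fold change -0.03 ± 0.14, SE, adjusted p = 0.881). Neither gene was called, whereas Usp11, the remaining member of that trio, was lower, and its ratios to both gave an exact permutation p of 0.3. Usp36, a nucleolar enzyme, had 12.3, 11.8 and 11.5 CPM in the LPS-treated libraries, against 16.7, 15.7 and 7.77 CPM in the FTY720-only libraries (log2 fold change -0.13 ± 0.27, SE, adjusted p = 0.727). FTY720 replicate 3 was the lowest of all. Its relative Usp42, which acts on p53, had 22.8, 19.04 and 21.5 CPM in the FTY720 plus LPS libraries, against 17.4, 15.4 and 13.9 CPM in the FTY720 libraries (log2 fold change 0.45 ± 0.20, SE, adjusted p = 0.0645), with no overlap. Otub1, which also blocks ubiquitin-conjugating enzymes without cleaving, had 33.2, 38.1 and 35.5 CPM in the libraries given FTY720 and LPS, against 44.4, 35.7 and 36.7 CPM in the libraries given FTY720 alone (log2 fold change -0.13 ± 0.16, SE, adjusted p = 0.524). For Otub2, an OTU enzyme with few reads, the values were 7.83, 4.23 and 4.51 CPM in the LPS-treated libraries, against 4.005, 6.34 and 5.18 CPM in the FTY720-only libraries (log2 fold change 0.12 ± 0.34, SE, adjusted p = 0.79); 22.5% of reads at its locus lay on the opposite strand. In both Otub genes the groups overlapped. Usp53, the closest relative of Usp54, had 11.6, 7.62 and 11.5 CPM in the FTY720 plus LPS libraries, against 10.3, 6.68 and 8.71 CPM in the FTY720 libraries (log2 fold change 0.25 ± 0.27, SE, adjusted p = 0.468). Usp54 had 20.9, 17.8 and 14.02 CPM in the libraries given FTY720 and LPS, against 18.7, 16.02 and 15.8 CPM in the libraries given FTY720 alone (log2 fold change 0.08 ± 0.21, SE, adjusted p = 0.768). Usp22, the deubiquitinase of the SAGA complex, had 47.7, 47.8 and 46.1 CPM in the LPS-treated libraries, against 60.1, 51.4 and 39.8 CPM in the FTY720-only libraries (log2 fold change -0.08 ± 0.16, SE, adjusted p = 0.691). All 3 overlapped, and the fitted changes lay within their standard errors of 0.

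**Figure D3:**
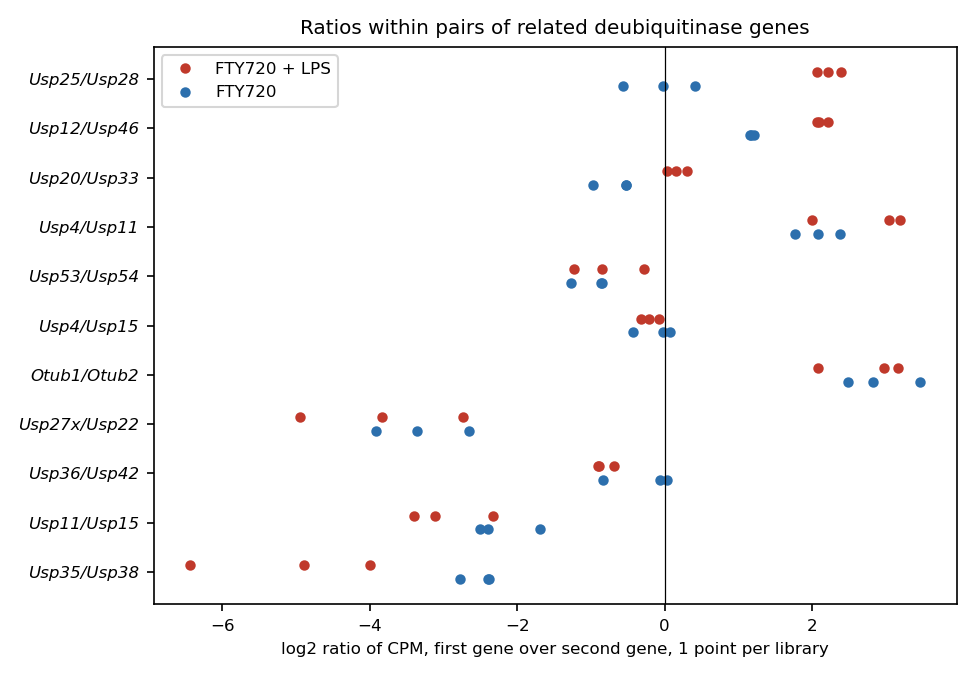
Log2 ratio of CPM between the first and second gene of 11 paralog pairs, with 1 point per library: FTY720 plus LPS in red (upper row of each pair) and FTY720 in blue. The colours separate for Usp25/Usp28, Usp12/Usp46, Usp20/Usp33 and Usp35/Usp38.

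Members linked to NF-κB and innate immune signalling were called about as often as genes at large. Of 20 listed, 18 were tested, 4 were higher (Otud1, Usp25, Usp38 and Usp7), 4 lower (Usp21, Usp2, Usp31 and Usp48) and 10 not called. That is 22.2% in each direction, beside 23.3% higher and 22.7% lower among all genes tested, and the list's median log2 fold change was -0.00. The uncalled OTU members of the list had log2 fold changes of -0.34 to 0.23. Otud5, an OTU enzyme that acts on TRAF3, had 48.1, 43.2 and 41.1 CPM in the FTY720 plus LPS libraries, against 47.1, 40.7 and 42.4 CPM in the FTY720 libraries (log2 fold change 0.03 ± 0.14, SE, adjusted p = 0.883). Otud7b, which prefers K11-linked chains, had 65.3, 63.04 and 51.1 CPM in the libraries given FTY720 and LPS, against 49.4, 54.8 and 49.9 CPM in the libraries given FTY720 alone (log2 fold change 0.23 ± 0.14, SE, adjusted p = 0.189). Otud4 had 59.3, 43.9999 and 45.1 CPM in the LPS-treated libraries, against 69.7, 66.1 and 54.4 CPM in the FTY720-only libraries (log2 fold change -0.34 ± 0.15, SE, adjusted p = 0.0667). Otud4, an OTU enzyme that also serves as a scaffold in DNA repair, passed the test in 5 alternatives, among them without FTY720 replicate 3 (-0.44, adjusted p = 0.00501) and without FTY720 plus LPS replicate 1 (-0.47, adjusted p = 0.0367). Usp19, an enzyme anchored in the endoplasmic reticulum, had 76.8, 76.2 and 73.1 CPM in the FTY720 plus LPS libraries, against 74.1, 70.8 and 61.9 CPM in the FTY720 libraries (log2 fold change 0.13 ± 0.13, SE, adjusted p = 0.406). Usp10, a partner of the stress granule protein G3bp1, had 16.8, 15.7 and 16.5 CPM in the libraries given FTY720 and LPS, against 14.7, 12.02 and 12.2 CPM in the libraries given FTY720 alone (log2 fold change 0.34 ± 0.21, SE, adjusted p = 0.203). In Usp10 the groups did not overlap although it missed the threshold. Usp27x, an X-linked relative of Usp22, had 3.36, 7.19 and 1.502 CPM in the LPS-treated libraries, against 4.005, 5.01 and 6.36 CPM in the FTY720-only libraries, with the wider scatter in the LPS-treated group (log2 fold change -0.35 ± 0.40, SE, adjusted p = 0.504). Usp4, Usp15, Otub1 and Otub2, the remaining members of the list, are given above.

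Lists by other roles overlap with each other and hold few genes, so their counts are given as descriptions, to be read beside the 23.3% higher and 22.7% lower among all genes tested. Among 9 tested members linked to deubiquitination of histones H2A and H2B, Usp16 and Usp12 were higher and Usp21 lower. Usp3, another H2A enzyme, had a log2 fold change of 0.07 ± 0.14, Usp22 had -0.08 ± 0.16, and Usp49 had 0.73 ± 0.31 (adjusted p = 0.728, 0.691 and 0.0587). Among 10 members linked to DNA damage and replication, Usp37 and Usp7 were higher and Usp28, Usp11 and Usp45 lower. Usp1, which deubiquitinates the repair protein Fancd2, stood at 0.03 ± 0.15 (adjusted p = 0.901), and Usp47 at 0.40 ± 0.18 (adjusted p = 0.0742). Of 12 members linked to endosomes, membrane receptors or mitochondria, or listed with them by name, 2 were higher (Usp12 and Usp9x) and 5 lower (Usp30, Usp35, Usp2, Usp33 and Usp8), which is 16.7% and 41.7%, and the median log2 fold change was -0.21. Of these lower members only Usp30 was also called by DESeq2, and the list was made with earlier results of these data known. Among 4 tested members that recycle chains or act at the proteasome, Usp25 was higher. Usp14, the deubiquitinase bound to the proteasome, stood at 0.30 ± 0.13 (adjusted p = 0.0616) and Usp5, which takes apart free chains, at -0.33 ± 0.17 (adjusted p = 0.113). The 5 tested members that act in splicing or are atypical in sequence were not called, and Usp39, a component of the spliceosome, stood at -0.05 ± 0.22 (adjusted p = 0.864).

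Levels can be set side by side only per length, for which CPM was divided by the annotated exon length of each gene. That length joined all exons of the gene in GENCODE M21, whichever transcripts were expressed. The annotation used for counting was not given, so the order between genes is approximate. By the mean over both groups, the 3 highest members on that scale were Usp8, Usp7 and Otub1. Usp8 stood at 18.02 CPM per kilobase in the FTY720 plus LPS libraries and 22.4 in the FTY720 libraries. Usp7 stood at 18.2 CPM per kilobase in the FTY720 plus LPS libraries and 13.1 in the FTY720 libraries, and Otub1 at 13.99 CPM per kilobase in the FTY720 plus LPS libraries and 15.3 in the FTY720 libraries. The order differed between the groups: Usp38, at 15.5 CPM per kilobase in the FTY720 plus LPS libraries and 7.67 in the FTY720 libraries, had a mean above that of Otub1 with LPS, where their libraries overlapped, and below it without LPS. With LPS the libraries of Usp8 and Usp7 overlapped on this scale, and without LPS those of Usp8 were higher. Otud1 stood at 14.004 CPM per kilobase in the FTY720 plus LPS libraries and 4.09 in the FTY720 libraries, and with LPS its libraries overlapped those of Otub1. At the low end of the tested members by the same mean were Usp53, Usp49 and Usp35. Usp53 stood at 0.814 CPM per kilobase in the FTY720 plus LPS libraries and 0.682 in the FTY720 libraries. Usp49 stood at 1.14 CPM per kilobase in the FTY720 plus LPS libraries and 0.692 in the FTY720 libraries. Usp35 stood at 0.595 CPM per kilobase in the FTY720 plus LPS libraries and 1.46 in the FTY720 libraries.

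Log2 fold changes rose with mean expression among the members, as they did among all genes. Over the 50 members Pearson's r with mean log2 CPM was 0.37 and Spearman's rho 0.39, and over all 10124 genes 0.25 and 0.33. These are correlations across genes, which share the libraries and are not independent replicates. Of the 13 tested members below a mean log2 CPM of 4, 5 were lower and the other 8 not called, and of the 9 members at 6 or above 3 were higher and 1 lower. Among all genes tested, 27.8% of those below 4 were lower and 11.3% higher, and at 6 or above 54.6% were higher and 11.1% lower. In all genes at 6 or above the median log2 fold change was 0.37, and the 9 members there had a median of 0.20. With that trend removed, 8 members were higher and 9 lower, of which 6 and 8 were among the calls already described. No relation to exon length was seen (r = -0.02 with log2 length, n = 50 genes).

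**Figure D4:**
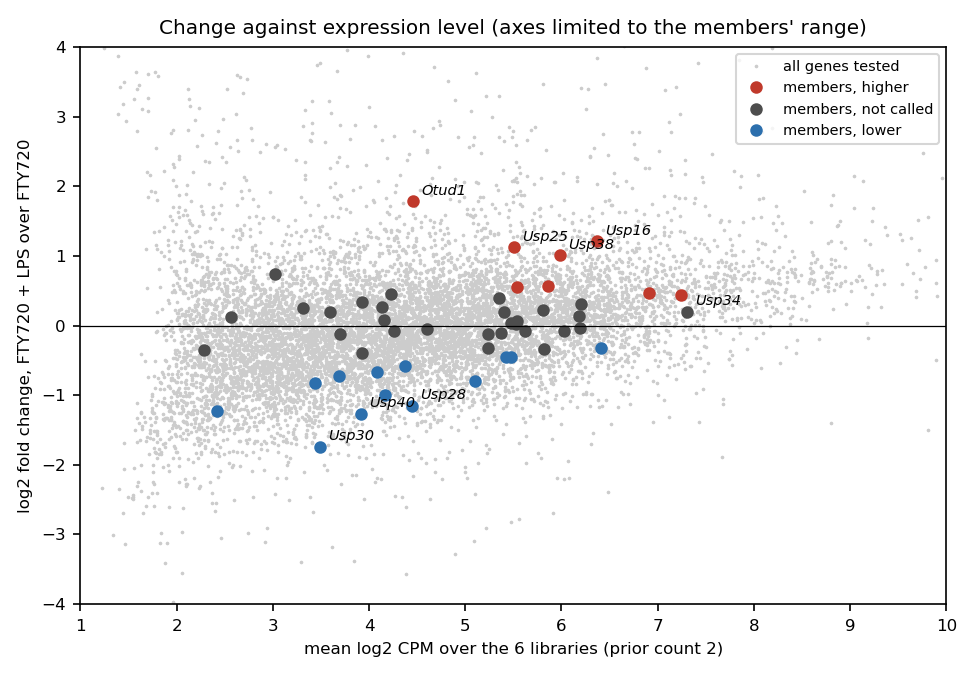
Log2 fold change (FTY720 plus LPS over FTY720) against mean log2 CPM for the 50 tested members (red higher, blue lower, dark grey not called) over all 10124 genes tested (light grey); 102 genes lie outside the axes. All 8 red members lie above a mean log2 CPM of 4, and Otud1, Usp25, Usp38 and Usp16 lie above a log2 fold change of 1.

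The 29 tested members without a call had log2 fold changes of -0.39 to 0.73, and 18 of them lay within 0.25 of 0. In 5 of them the CPM values of the groups did not overlap: Usp10, Usp14, Usp34, Usp42 and Usp46. Among all genes tested, called or not, 54.0% had no overlap, and the share among uncalled genes is not given here. Usp34, the member with the most reads and an enzyme of Wnt signalling, had 169, 170.1 and 166 CPM in the FTY720 plus LPS libraries, against 139, 151 and 151 CPM in the FTY720 libraries (log2 fold change 0.20 ± 0.11, SE, adjusted p = 0.141). Without FTY720 replicate 3, Otud4, Otud6b, Usp14, Usp34 and Usp5 were called as well (adjusted p = 0.00501 to 0.0405). Usp47 passed without FTY720 plus LPS replicate 3 (0.56, adjusted p = 0.0278) or FTY720 replicate 2 (0.54, adjusted p = 0.0202), and Usp49 without FTY720 plus LPS replicate 1 (0.94, adjusted p = 0.0393) or FTY720 replicate 1 (1.08, adjusted p = 0.0164). Otud3, Otud6b and Usp32 stood at 0.20 ± 0.24, 0.20 ± 0.16 and -0.11 ± 0.16, and Usp6nl at -0.08 ± 0.20 (adjusted p = 0.322 to 0.768).

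The 15 members that did not pass the filter had at most 46 reads in all 6 libraries together. Usp29, an imprinted gene in mice, had 12 reads with LPS against 34, Usp13 had 9 against 20 and Otud7a had 9 against 17. Usp44, Usp50, Usp51, Usp43, Usp26, Otud6a, Usp17lb and Usp17ld had between 1 and 8 reads in all. The germline-type genes Usp17la, Usp17lc and Usp17le and the Y-linked Usp9y had 0 sense reads in every library, which allows up to 3 reads each, or 0.706 to 1.502 CPM on the TMM scale (counting error only). Copies of Usp17-like genes are near-identical, and reads shared between copies may be left out of such counts, so their levels are uncertain.

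Outside the name rule, 65 genes of the same system were listed and 60 tested, of which 19 were higher and 8 lower, or 31.7% and 13.3%, beside 23.3% and 22.7% of all genes tested. Their median log2 fold change was 0.21. With total library size as the scale 5 were higher, with upper-quartile factors 13 lower, and with DESeq2 5 lower. The count of lower genes was 5 without FTY720 plus LPS replicate 1 and 4 without replicate 2. Among 11 further OTU and USP-type enzymes, Tnfaip3, which encodes the NF-κB inhibitor A20, rose by 2.77 ± 0.13 on the log2 scale, and Usp18 by 4.08 ± 0.20, with 534 reads under LPS against 45 without it. Cyld, a tumour suppressor that removes K63-linked and linear chains, fell by 0.80 ± 0.21, as did Pan2 (by 1.44 ± 0.32), a subunit of a deadenylase with a USP-like domain. Otulin, which removes linear chains only, stood at 0.07 ± 0.18 (adjusted p = 0.781).

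Of the smaller deubiquitinase families, 2 of 11 tested UCH, Josephin, MINDY and ZUFSP genes were higher and 3 lower (18.2% and 27.3%, beside 23.3% and 22.7% of all genes tested). Zufsp, which cleaves K63-linked chains, had 117, 104 and 94.6 CPM in the libraries given FTY720 and LPS, against 25.4, 23.04 and 28.3 CPM in the libraries given FTY720 alone. It rose 4.10-fold (log2 fold change 2.03 ± 0.14, SE, adjusted p = 5.14e-11), with no overlap. The Josephin enzymes Josd1 and Atxn3 fell, by 0.65 ± 0.18 and 0.45 ± 0.17. Of 12 JAMM metalloproteases and related subunits, Eif3f, Cops5 and Eif3h were higher and Stambp and Prpf8 lower (25% and 16.7%). Among 21 tested partners and linked ubiquitin enzymes, 8 were higher (38.1%, beside 23.3% of all genes tested) and the other 13 not called. The lists of other genes were made with earlier results of these data known, so these shares are descriptions. Peli1, a ubiquitin ligase of Toll-like receptor signalling, rose by 2.46 ± 0.12 and G3bp1, the partner of Usp10, by 1.49 ± 0.11, while Wdr48, the partner of Usp1, Usp12 and Usp46, stood at -0.24 ± 0.15 (adjusted p = 0.204).

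**Figure D5:**
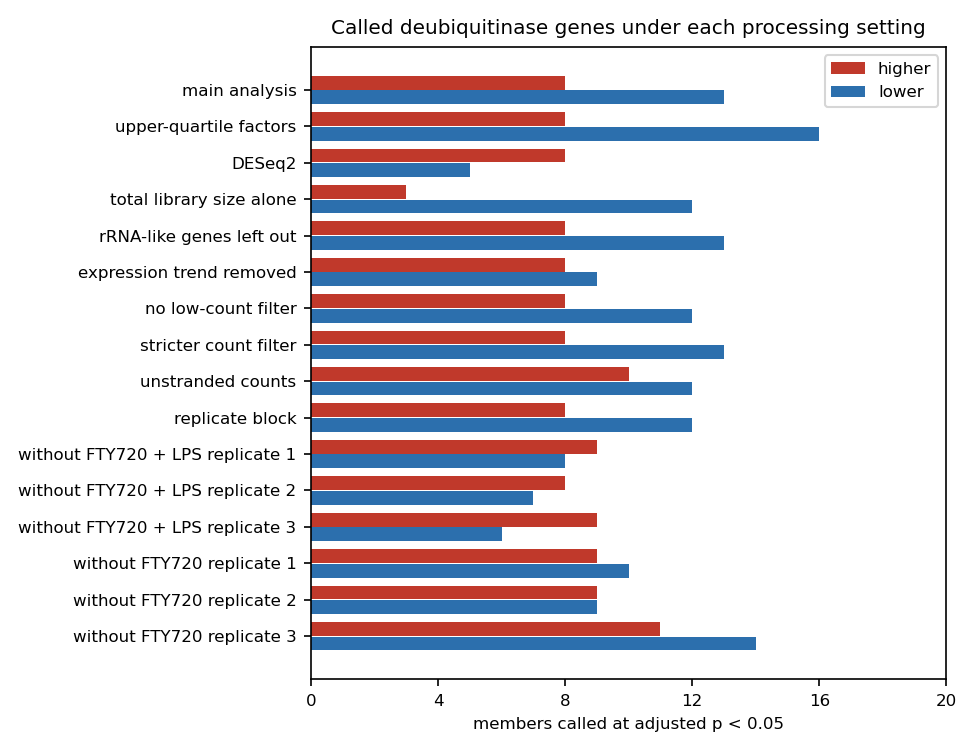
Number of members called higher (red) and lower (blue) at adjusted p under 0.05 in the main analysis and in 15 alternatives. The higher count lies between 8 and 11 except with total library size alone (3), and the lower count ranges from 5 with DESeq2 to 16 with upper-quartile factors.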

How the data were processed

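Total RNA was sequenced from 6 libraries (3 per group). The authors deposited read counts per gene for each library, with a column for each strand setting, and per the submitters' processing notes CASAVA 1.8.2, Trimmomatic 0.33, STAR 2.5.1 and the mm10 build were used. Annotation and counting settings were not given in the sources used here. Counts in the fourth deposited column were taken as the sense counts, since 98.4% to 98.9% of gene reads fell on that strand. Rows that name no gene (unmapped, multimapping, ambiguous or outside genes) made up 74.5% to 79.2% of the listed reads and entered neither library sizes nor tests.

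Genes were filtered with edgeR 4.0.16 (filterByExpr, minimum count 10), scaled with TMM factors and tested by the quasi-likelihood test in R 4.3.3, with Benjamini-Hochberg adjustment over all 10124 genes and a threshold of 0.05. Each SE was obtained from the F statistic, as the absolute log2 fold change over its root. Mean log2 CPM used a prior count of 2. Ratios of paralogs were compared over libraries by exact permutation. The fitting steps were run on simulated counts in which few genes changed, evenly in both directions. Those counts had no trend on mean expression and no differences in rRNA-like share, so the run does not bear on the choice of scaling. Gene positions and exon lengths came from GENCODE M21 on GRCm38, the build named mm10, in which 65 of the 65 members were matched. RefSeq windows hold 300 bases.

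The members, gene lists and pairs were chosen with earlier results of these data known. Values in every library are given for the 10 called members with the highest and the 10 with the lowest fold change at a mean log2 CPM of at least 3, every tested member of the innate immune list, partners of paralog pairs and the 3 members with the highest level per kilobase, and further members were added after their values were seen. Of other genes, some called ones are named per list, in places more than 3 and not always those of the largest change. Otulin and Wdr48 were added after their values were seen. Alternatives were upper-quartile factors, total library size alone, DESeq2 1.42.0, leaving out rRNA-like genes, removing the trend of fold change on mean expression, no filter, a mean of at least 30 reads, unstranded counts, a replicate block and leaving out each library. SEs and p-values include the spread between libraries, and the limit given for a count of 0 covers counting error only.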

Additional observations from a re-analysis of the deposited data

Results flagged for a closer look

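At Usp35, reads on the strand opposite to the gene, which entered only the alternative with unstranded counts, numbered 20, 14 and 11 in the FTY720 plus LPS libraries, against 10, 9 and 7 in the FTY720 libraries. Their sum was 45 with LPS against 26 with FTY720 alone, while the sense reads numbered 23 against 78. Scaled to all opposite-strand gene reads of each library, every LPS-treated library lay above every FTY720-only library. Opposite-strand reads made up 41.3% of all reads at this locus over the 6 libraries, beside a median of 1.66% over the 50 tested members, of which 42 lay under 5%. In GENCODE M21 no other gene overlaps Usp35 on either strand. The difference was not tested, and where these reads start was not tested.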

How the results depend on the processing

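In the 15 alternatives, 8 of the 21 called members kept their call in every one (Otud1, Usp16, Usp25, Usp21, Usp28, Usp30, Usp31 and Usp40) and 13 lost it in at least 1, while 0 changed direction. Members called higher numbered 3 with total library size as the scale and 8 to 11 otherwise. Members called lower numbered 5 with DESeq2, 16 with upper-quartile factors, and 6 to 14 with 1 library left out. The members' median log2 fold change was -0.13 with upper-quartile factors, -0.35 with total library size, -0.10 with a mean of at least 30 reads, and -0.028 to 0.10 with 1 library left out. Of the other deubiquitinases and partners, 5 were higher with total library size, and lower ones numbered 13 with upper-quartile factors, 5 with DESeq2 and 4 to 8 with 1 library left out. Over all genes, 766 were higher with total library size and 1274 lower with DESeq2, and higher calls made up 50.7% of all calls in the reported analysis, 38.8% with upper-quartile factors, 22.2% with total library size and 61.6% with DESeq2. The cause of these differences was not tested.

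Among uncalled members, 21 changed direction in at least 1 alternative. With upper-quartile factors, the sign turned for Otub2 (-0.0093), Otud5 (-0.10), Usp1 (-0.11), Usp19 (0), Usp3 (-0.069) and Usp54 (-0.051). With total library size as the scale, the sign turned for Otub2 (-0.18), Otud3 (-0.10), Otud5 (-0.29), Otud6b (-0.15), Otud7b (-0.081), Usp1 (-0.32), Usp14 (-0.030), Usp19 (-0.17), Usp20 (-0.059), Usp3 (-0.25), Usp34 (-0.12), Usp53 (-0.080) and Usp54 (-0.23). With the expression trend removed, the sign turned for Otud5 (-0.054), Usp1 (-0.064), Usp19 (-0.076), Usp27x (0.047), Usp3 (-0.028), Usp34 (-0.24), Usp36 (0.065) and Usp6nl (0.022). With a mean of at least 30 reads, the sign turned for Otud5 (-0.042), Usp1 (-0.044) and Usp3 (-0.0067). With unstranded counts, the sign turned for Usp1 (-0.0079). With DESeq2, the sign turned for Usp15 (0.0028). With 1 library left out, the sign depended on the library for Otub2 (-0.21 to 0.31), Otud5 (-0.010 to 0.10), Usp1 (-0.029 to 0.16), Usp15 (-0.13 to 0.15), Usp22 (-0.24 to 0.060), Usp27x (-1.01 to 0.016), Usp32 (-0.24 to 0.025), Usp36 (-0.44 to 0.067), Usp39 (-0.22 to 0.16), Usp4 (-0.097 to 0.0036), Usp54 (-0.038 to 0.23) and Usp6nl (-0.20 to 0.055).

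Samples with the same replicate number did not deviate together (correlations of -0.022, -0.026 and -0.073), so the numbers were not taken to pair them. With the replicate block, 8 members were higher and 12 lower, and the members' median was 0.01; over all genes 2292 were higher and 2171 lower. With few reads, as for Usp35, Otub2, Usp27x and the 15 untested members, a difference may not be detectable at this depth. Total library size moved the median of all genes by -0.32 and upper-quartile factors by -0.13.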
